A study of Mus musculus with 6 samples.

Results

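Plasma membrane and lysosomal carriers for amino acids and small peptides were read on 6 Affymetrix arrays of mouse colonic mucosa. The genes are those whose symbol begins with Slc1a, Slc3a, Slc6a, Slc7a, Slc15a, Slc36a, Slc38a or Slc43a and which have a probe set assigned to that symbol alone. This gave 68 genes of 18193 with such a probe set, each represented by its brightest probe set over the 6 arrays. Of the 68, 65 encode carriers or their partner chains. The other 3, Slc7a6os, Slc36a1os and Slc6a19os, carry the name of a carrier gene on the opposite strand and are not transporters. There were 3 arrays from C57BL/6 mice labelled p38a knockout and 3 from C57BL/6 mice labelled wild type, lettered A, B and C in each group, with no treatment in either. The sources used here do not give the deletion's driver, the age of the mice or whether a sample is 1 animal or a pool. The labels do not say that samples came from separate animals, so p-values reflect the spread among these arrays alone, part of which may be technical.

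Absorptive cells of the gut take up amino acids and small peptides at the luminal face through carriers driven by sodium, protons or exchange, and release them at the basolateral face mainly through exchangers. Several of the exchangers are heteromers, in which a heavy chain (Slc3a1 or Slc3a2) brings a catalytic light chain of the Slc7 family to the membrane. The colon absorbs far less dietary amino acid than the small intestine, and its epithelium also uses these carriers for its own supply. Other members of the Slc6 family move transmitters, creatine or taurine.

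Values are log2(signal + 16) after quantile normalization, which brings all arrays to 1 distribution, so that 4 is the bottom of the scale and differences of dim genes are understated. Differences are the labelled-knockout arrays minus wild type. The probe sets of different genes cannot be ranked against each other by signal. Mapk14, which encodes p38a, read 9.72, 9.91 and 9.73 in the labelled-knockout arrays (A to C), against 9.31, 9.44 and 9.37 in wild type (A to C). It was not lower in the labelled-knockout arrays, which are therefore called by their label throughout. Where the Mapk14 probe set lies relative to the deleted exons is not known from the sources used here, so the reading cannot settle whether the labels are right. Gapdh control probe sets at the transcript's 3' and 5' ends gave a 3'/5' ratio, a measure that increases with RNA degradation, which was 0.859 to 0.954 in the labelled-knockout arrays, against 1.10, 0.989 and 1.45 in the wild-type arrays A, B and C. Deposited array brightness, as a trimmed mean, was 192 to 222 in the labelled-knockout arrays, against 141, 188 and 117 in the wild-type arrays. The Gapdh ratio and brightness thus moved with the genotype label. For Actb the 3'/5' ratio was 2.05, 2.27 and 1.82 in the labelled-knockout arrays (A to C), against 2.40, 2.24 and 3.25 in wild type (A to C). On that measure the groups overlapped, with wild type B just below the array labelled knockout B. The part of RNA quality and brightness in the differences below was not tested. Some values are given with the Gapdh ratio in the model. As the ratio did not overlap between the groups, such a model cannot separate its part from that of the label. By its label the material is intestinal epithelial cells. The epithelial genes Krt8 and Epcam and the colonocyte gene Car1 read above 13 on every array. However, the stromal gene Dcn was read as well, at 7.65 to 10.45 in the labelled-knockout arrays and 9.38 to 9.86 in wild type. So was the plasma cell gene Jchain, at 9.62 to 11.74 in the labelled-knockout arrays and 8.81 to 11.90 in wild type. In such bulk samples fewer cells of a type and less RNA per cell cannot be told apart.

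For most of these carriers the measured difference was small, and 0 passed the test. Of the 68 genes, 41 (40 transporters and Slc7a6os) had a mean of at least 5.10, the 40th percentile of all probe sets, and were tested in limma together with all other genes. Of the 41, 18 read higher and 23 lower, and the median difference was -0.03, beside 0.02 over all 12437 genes tested. For 24 of the 41 the difference was smaller than 0.2 in size. Adjusted over all genes tested, limma called 0 of the 41 at 0.05 (0% of all genes), and the smallest adjusted p among them was 0.902. An unadjusted limma p under 0.05 was found for 2, Slc6a20a and Slc6a4, or 4.88%, beside 3.94% of all genes tested. Both read higher (1.74% of all genes did so at that p), and 0 carriers read lower at that p (2.2% of all genes). Only for Slc6a20a did the groups not overlap, 2.44% of the 41, beside 9.06% of all genes. A difference of at least 2-fold on the log2(signal + 16) scale was likewise seen in Slc6a20a alone, beside 0.587% of all genes. With the Gapdh ratio in the model neither gene kept an unadjusted limma p under 0.05 (0.150 for Slc6a20a and 0.235 for Slc6a4). The standard errors of the 41 differences ran from 0.14 to 0.89 with a median of 0.25, and a difference of over 2-fold, that of Slc6a20a, was not called at this number of arrays.

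**Figure D1:**
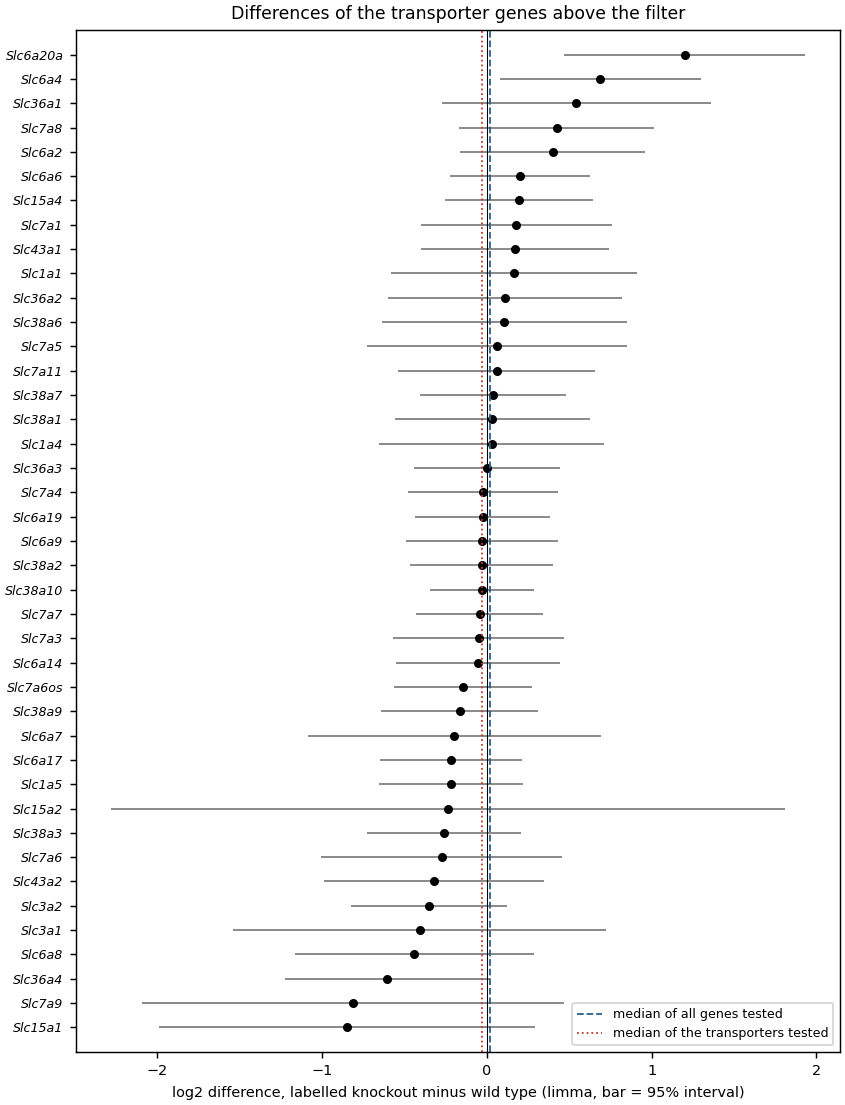
Log2 difference of the 41 tested genes, arrays labelled knockout minus wild type, with the 95% interval from limma (3 arrays each); dashed and dotted lines mark the medians of all genes tested (0.02) and of the 41 (-0.03). Only the intervals of Slc6a20a and Slc6a4 lie wholly on 1 side of 0.

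Slc6a20a, which encodes a sodium-dependent carrier of proline and other imino acids, had the largest difference of the 41. It read 6.31, 6.31 and 6.03 in the labelled-knockout arrays (A to C), against 5.44, 5.33 and 4.29 in wild type (A to C). The groups did not overlap, and wild type C was close to the bottom of the scale. The means were 6.22 ± 0.16 in the labelled-knockout arrays and 5.02 ± 0.64 in wild type (SD, n = 3 each), a difference of 1.20 (95% interval 0.47 to 1.93). The wild-type mean lay below the filter value of 5.10, so the gene passed the filter only through its labelled-knockout values. With the 60th percentile filter it was not tested. The gene missed the threshold (limma adjusted p = 0.902; unadjusted 0.00517), and its exact two-sided permutation p of 0.1 is the smallest that 3 against 3 arrays can give. The difference was 0.83 without wild type C, 0.89 against wild type B alone and 0.54 with the Gapdh ratio in the model. Its size also depended on the pseudocount, with 2.01 at a pseudocount of 1 and 0.59, under 2-fold, at 64. Slc6a20b, its neighbouring paralog on the same chromosome, lay below the filter, with 4.68 to 5.19 in the labelled-knockout arrays and 4.48 to 5.03 in wild type.

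The starts of Slc6a20a and of the heteromer partners Slc3a1 and Slc7a9 are shown because Slc6a20a carried the largest difference and the partners moved together from array to array, as described further on. Each window runs from 250 bases before to 50 after the RefSeq start (GRCm38.p6) on the gene's own strand, and 50 of the 68 genes have such a window. Capitals mark matches on either strand to the HNF1 half-site GTTAAT or the HNF4 motif CAAAGTCCA, letters bound by regulators of intestinal, hepatic and renal epithelium.
Slc6a20a, chr9:123678783-123679082, minus strand: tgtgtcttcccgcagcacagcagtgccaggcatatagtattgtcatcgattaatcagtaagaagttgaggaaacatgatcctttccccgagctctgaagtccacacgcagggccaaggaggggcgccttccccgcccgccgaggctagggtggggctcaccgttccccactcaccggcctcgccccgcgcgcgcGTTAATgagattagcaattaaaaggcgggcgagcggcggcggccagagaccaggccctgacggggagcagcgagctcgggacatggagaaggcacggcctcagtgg
Slc3a1, chr17:85028097-85028396, plus strand: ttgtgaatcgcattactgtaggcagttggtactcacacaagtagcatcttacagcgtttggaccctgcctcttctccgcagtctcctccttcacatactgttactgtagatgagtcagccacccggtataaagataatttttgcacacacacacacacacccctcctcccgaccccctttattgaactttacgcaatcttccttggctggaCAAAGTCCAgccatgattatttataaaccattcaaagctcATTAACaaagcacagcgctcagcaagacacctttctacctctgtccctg
Slc7a9, chr7:35448842-35449141, plus strand: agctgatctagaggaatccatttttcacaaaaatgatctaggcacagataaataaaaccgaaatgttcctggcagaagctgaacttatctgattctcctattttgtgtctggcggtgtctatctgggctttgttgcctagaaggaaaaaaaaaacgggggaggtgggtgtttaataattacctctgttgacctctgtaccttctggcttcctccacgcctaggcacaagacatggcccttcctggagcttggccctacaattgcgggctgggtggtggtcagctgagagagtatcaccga
Slc6a20a held the HNF1 half-site starting 56 bases before the start. Slc3a1 held the HNF4 motif starting 39 bases before it and the HNF1 half-site, as ATTAAC, just after it. Slc7a9, for which the first of 2 listed starts is shown, held neither. Of all 32851 windows 7.10% held the half-site and 0.475% the HNF4 motif, on either strand. The CDX motif TTTATG (11.8% of all windows) and the amino acid response motif TGATGNAAT (0.965%) were in none of the 3 windows. These are matches of letters, and the files hold no measure of binding.

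Among the other luminal carriers, the groups overlapped for every gene tested. Of 16 genes assigned to luminal uptake, Slc6a20a included, 13 were tested, 5 higher and 8 lower, with a median of -0.05. Slc6a14, a broad carrier of neutral and cationic amino acids typical of the large intestine, read 11.27, 11.44 and 12.11 in the labelled-knockout arrays (A to C), against 11.59, 11.54 and 11.84 in wild type. Its difference was -0.05 (95% interval -0.55 to 0.45), and its other probe set stood at -0.06. Slc6a19, the main neutral amino acid carrier of the small-intestinal brush border, was dim and nearly flat, with 5.54, 5.41 and 5.47 in the labelled-knockout arrays, against 5.50, 5.52 and 5.48 in wild type. Its difference was -0.03 (95% interval -0.43 to 0.38), and its range over the 6 arrays, 0.13, was smaller than that of all but 0.249% of the genes tested.

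The glutamate carrier Slc1a1 and the glutamine carrier Slc1a5 gave opposite signs by probe set. Slc1a1 read 8.03, 7.74 and 8.80 in the labelled-knockout arrays, against 8.07, 8.45 and 7.56 in wild type. The difference of 0.16 (95% interval -0.58 to 0.91) lay within the spread of both groups, and its other probe sets above the filter stood at -0.30 and 0.14. Slc1a5 read 8.26, 8.11 and 8.15 in the labelled-knockout arrays, against 8.45, 8.09 and 8.63 in wild type, a difference of -0.22 (95% interval -0.65 to 0.22). On the second, dimmer Slc1a5 probe set the groups were apart, with 6.40, 6.48 and 6.58 under the knockout label and 5.93, 6.17 and 5.73 in wild type, a difference of 0.55. The direction for Slc1a5 therefore depends on the probe set. Over the tested genes, 19 had 32 further probe sets above the filter, and 18 of these probe sets went the same way as the brightest and 14 the opposite way.

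Of the peptide and proton-coupled carriers, Slc15a1, Slc15a2, Slc36a1 and Slc36a4 varied more. The ranges of Slc36a3 and Slc15a4, 0.31 and 0.48, were narrower than the median of 0.71 over all genes tested. Slc15a1, the proton-driven carrier of dipeptides and tripeptides, read 7.04, 8.57 and 8.46 in the labelled-knockout arrays (A to C), against 9.12, 7.96 and 9.53 in wild type (A to C). The array labelled knockout A was lowest, wild type B lay inside the range of the labelled-knockout arrays, and the difference was -0.85 (95% interval -1.99 to 0.29; limma adjusted p = 0.902). Without the array labelled knockout A it was -0.36, against wild type B alone 0.06, and with the Gapdh ratio in the model -0.0082. Slc15a2, a peptide carrier of higher affinity known mainly from kidney and brain, read 5.28, 8.16 and 8.56 in the labelled-knockout arrays, against 8.71, 6.27 and 7.72 in wild type. It had the widest range of the 41, 3.43, wider than that of 99.9% of all genes tested, and its difference of -0.24 had an interval of -2.28 to 1.81. Its direction turned to 0.79 without the array labelled knockout A and to 0.34 without wild type A. Its other probe sets read 5.53 to 6.19 and 5.19 to 5.76 in the labelled-knockout arrays and 5.46 to 6.49 and 4.96 to 5.47 in wild type, a far narrower spread.

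Slc36a1, a proton-coupled carrier of small neutral amino acids, read 8.01, 8.57 and 9.54 in the labelled-knockout arrays, against 7.97, 8.14 and 8.38 in wild type. The array labelled knockout C alone stood clear of wild type by over 1 unit, the difference was 0.54 (95% interval -0.27 to 1.36), and without that array it was 0.13. Slc36a4, a high-affinity carrier of proline and tryptophan in the same family, read 6.99, 6.11 and 6.70 in the labelled-knockout arrays, against 7.48, 7.20 and 6.94 in wild type. Only the array labelled knockout A and wild type C overlapped, and the difference was -0.60 (95% interval -1.22 to 0.02; limma adjusted p = 0.902). It was -0.36 without the array labelled knockout B and -0.91 with the Gapdh ratio in the model. Slc36a2 and Slc36a3, which lie beside Slc36a1 in the genome, read between 4.60 and 5.64 on all arrays.

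The luminal heteromer of Slc3a1, the heavy chain rBAT, and Slc7a9, its light chain for cystine and dibasic amino acids, varied between arrays more than between groups. Slc3a1 read 7.92, 8.40 and 9.47 in the labelled-knockout arrays (A to C), against 9.04, 8.13 and 9.83 in wild type (A to C). Slc7a9 read 7.24, 7.52 and 8.83 in the labelled-knockout arrays, against 7.96, 8.21 and 9.85 in wild type. Both chains were highest in wild type C, next in the array labelled knockout C and lowest in the array labelled knockout A. The difference was -0.41 (95% interval -1.54 to 0.73) for Slc3a1 and -0.81 (95% interval -2.09 to 0.47) for Slc7a9, with ranges over the arrays wider than those of 96.6% and 99.4% of all genes tested. Without wild type C the differences were 0.010 for Slc3a1 and -0.23 for Slc7a9. With the Gapdh ratio in the model both signs turned, to 0.38 and 0.094.

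**Figure D2:**
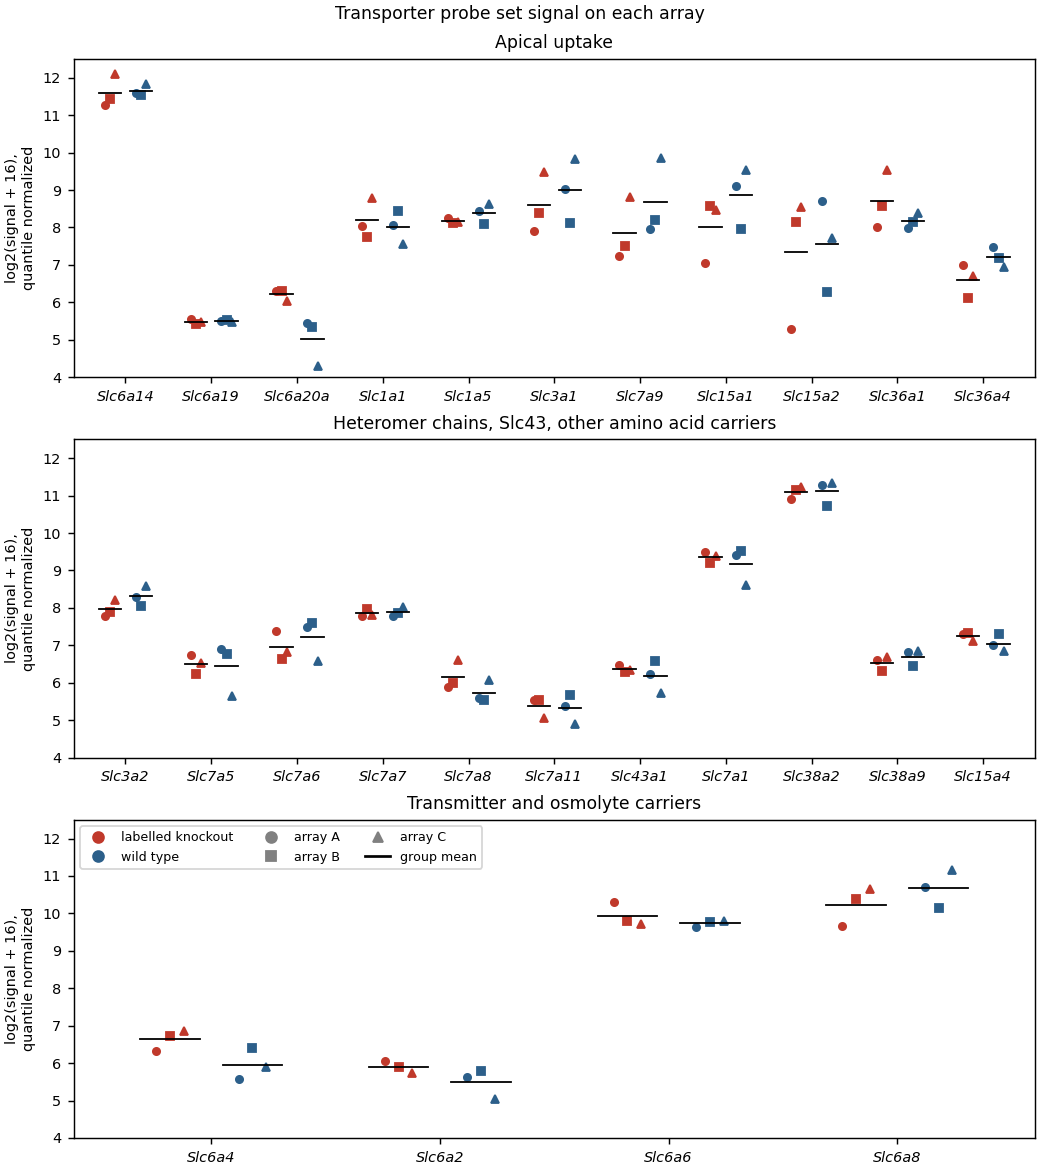
Log2(signal + 16) of 26 carrier genes on each array, arrays labelled knockout (red, left of each pair) and wild type (blue, right); symbols give the array letter and lines the group means of 3 arrays. The groups are apart for Slc6a20a only, and Slc15a2, Slc7a9, Slc15a1 and Slc6a20a spread over more than 2 log2 units.

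On their brightest probe sets the basolateral heteromer chains had differences smaller in size than that of Slc7a9. Of 12 genes of the heteromer exchangers and the Slc43 family 8 were tested, 4 higher and 4 lower, with a median of 0.01. The shared heavy chain Slc3a2 read 7.80, 7.89 and 8.21 in the labelled-knockout arrays, against 8.30, 8.06 and 8.58 in wild type. Its difference was -0.35 (95% interval -0.82 to 0.13), and the array labelled knockout C lay above wild type B. Of its light chains, Slc7a7, which exports dibasic amino acids and is the chain lost in human lysinuric protein intolerance, read 7.79, 7.96 and 7.82 in the labelled-knockout arrays, against 7.79, 7.87 and 8.03 in wild type. Its difference was -0.04 (95% interval -0.43 to 0.34), although a second, dimmer probe set stood at 0.55. Slc7a8, a neutral amino acid exchanger of absorptive epithelia, read 5.88, 6.00 and 6.60 in the labelled-knockout arrays, against 5.60, 5.55 and 6.06 in wild type. Its difference of 0.42 (95% interval -0.17 to 1.02) came with an overlap at 3 arrays.

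For the light chains tied to growth and redox state, and for Slc43a1, every interval spanned 0. Slc7a5, the exchanger of large neutral amino acids that feeds proliferating cells, read 6.73, 6.23 and 6.53 in the labelled-knockout arrays, against 6.91, 6.76 and 5.64 in wild type. Its difference was 0.06 (95% interval -0.72 to 0.85), and it turned to -0.33 without wild type C and to -0.74 with the Gapdh ratio in the model. Slc7a6, a further exchanger of dibasic and neutral amino acids, read 7.38, 6.64 and 6.81 in the labelled-knockout arrays, against 7.48, 7.60 and 6.58 in wild type, a difference of -0.27 (95% interval -1.01 to 0.46). Without wild type C it was -0.59 and with the Gapdh ratio in the model -0.94. Slc7a11, the cystine and glutamate exchanger that supplies glutathione synthesis, was dim, with 5.55, 5.53 and 5.06 in the labelled-knockout arrays, against 5.39, 5.67 and 4.90 in wild type. Its difference was 0.06 (95% interval -0.54 to 0.66). Slc43a1, a facilitative carrier of branched-chain amino acids, read 6.48, 6.28 and 6.33 in the labelled-knockout arrays, against 6.25, 6.59 and 5.74 in wild type. Its difference of 0.17 (95% interval -0.40 to 0.74) turned to -0.054 without wild type C. Its relative Slc43a2 stood at -0.32.

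On their brightest probe sets the sodium-coupled Slc38 carriers, the cationic carriers and related genes stayed close to 0. Of 18 such genes 12 were tested, 6 higher and 6 lower, with differences from -0.26 to 0.20. Their dimmer probe sets above the filter spread further, from -0.37 for Slc1a4 to 1.20 for Slc38a10. On that Slc38a10 probe set the groups overlapped. Slc38a2, the amino acid carrier induced when amino acids run short, read 10.91, 11.14 and 11.23 in the labelled-knockout arrays, against 11.29, 10.73 and 11.34 in wild type, a difference of -0.03 (95% interval -0.46 to 0.40). Its dimmer probe sets stood at -0.31 and -0.29, and on the latter the groups did not overlap, beside 9.06% of all genes on their brightest probe sets. Slc7a1, the main carrier of arginine and lysine into many cells, read 9.50, 9.19 and 9.38 in the labelled-knockout arrays, against 9.40, 9.52 and 8.60 in wild type. Wild type C was lowest, and the difference of 0.18 (95% interval -0.40 to 0.76) was -0.11 without it. A second Slc7a1 probe set stood at -0.10. Slc38a9, the lysosomal arginine sensor of the mTORC1 pathway, stood at -0.16 (95% interval -0.64 to 0.31), with 6.32 to 6.69 in the labelled-knockout arrays and 6.44 to 6.85 in wild type. Slc15a4, a lysosomal carrier of histidine and peptides, stood at 0.20 (95% interval -0.25 to 0.64), with 7.11 to 7.32 in the labelled-knockout arrays and 6.84 to 7.29 in wild type.

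Among the carriers of transmitters and osmolytes 7 of 19 genes were tested, 3 higher and 4 lower, and Slc6a4 had the largest difference. Slc6a4, the serotonin transporter that also clears serotonin in intestinal epithelium, read 6.33, 6.72 and 6.86 in the labelled-knockout arrays (A to C), against 5.56, 6.40 and 5.89 in wild type (A to C). Wild type B lay just above the array labelled knockout A, and the other arrays of the groups were apart. The means were 6.64 ± 0.27 in the labelled-knockout arrays and 5.95 ± 0.42 in wild type (SD, n = 3 each), a difference of 0.69 (95% interval 0.08 to 1.30). It missed the threshold (limma adjusted p = 0.902; unadjusted 0.0313), and its two-sided exact permutation test gave p = 0.2. It was the only carrier called with array weights, at 0.995 (limma adjusted p = 0.0468, in a setting that called 171 genes and gave 24.1% of all genes an unadjusted p under 0.05). The difference was 0.24 against wild type B alone and 0.47 with the Gapdh ratio in the model. Leaving out the array labelled knockout B or C gave an unadjusted limma p of 0.0849 or 0.105, and leaving out wild type A or C gave 0.118 or 0.0514.

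Slc6a8, the creatine transporter, read 9.66, 10.39 and 10.64 in the labelled-knockout arrays, against 10.71, 10.14 and 11.16 in wild type. The difference was -0.44 (95% interval -1.17 to 0.29), its second probe set stood at -0.54, and the array labelled knockout A and wild type B were the lowest of their groups. Without the array labelled knockout A the difference was -0.15. Slc6a6, the taurine transporter, read 10.30, 9.80 and 9.72 in the labelled-knockout arrays, against 9.63, 9.78 and 9.81 in wild type. Its difference of 0.20 (95% interval -0.22 to 0.62) was 0.02 without the array labelled knockout A. A second, dimmer Slc6a6 probe set stood at 0.48, with 8.92, 8.88 and 8.35 in the labelled-knockout arrays, against 8.60, 8.64 and 7.45 in wild type, where wild type C was lowest. Slc6a2, the noradrenaline transporter, read 6.04, 5.90 and 5.72 in the labelled-knockout arrays, against 5.63, 5.78 and 5.04 in wild type. Its difference was 0.40 (95% interval -0.16 to 0.96), with wild type C lowest, and 0.18 without that array. The other 3 tested were Slc6a9, a glycine transporter, at -0.03, Slc6a7, a brain proline transporter, at -0.20, and the neuronal vesicle carrier Slc6a17 at -0.22. Slc7a6os, no transporter, stood at -0.14.

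The 27 genes below the filter were not tested. They included the glial and neuronal glutamate carriers Slc1a2, Slc1a3, Slc1a6 and Slc1a7, the renal carriers Slc6a18 and Slc7a13, the dopamine and glycine transporters Slc6a3 and Slc6a5, the betaine and GABA carriers Slc6a11, Slc6a12 and Slc6a13, and Slc7a2, Slc38a4, Slc38a5, Slc15a3 and Slc43a3. The groups were apart for 3 of the 27, Slc6a21 and Slc1a6 reading higher and Slc7a13 lower, all near the bottom of the scale, beside 9.32% of all genes apart when no filter was set. The single highest reading among them was 5.90, for Slc1a7 in wild type C. Next to the filter, Slc36a2 (mean 5.11) was just inside and Slc1a7 (mean 5.07) just outside. Dimness here is a property of probe set and transcript together and does not show that a gene is silent.

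Slc3a1, Slc7a9, Slc15a1, Slc15a2 and Slc6a8 followed a few epithelial genes from array to array, and these companions were picked after their values were seen. Relative to each gene's mean over the 6 arrays, Slc7a9 stood at -1.03, -0.75 and 0.56 in the labelled-knockout arrays (A to C), against -0.30, -0.06 and 1.58 in wild type (A to C). Mep1b, a brush border metalloprotease subunit, stood at -1.06, -0.76 and 0.58 in the labelled-knockout arrays, against 0.47, -0.33 and 1.11 in wild type. Fabp6, the ileal bile acid-binding protein gene, stood at -0.87, -1.48 and 1.24 in the labelled-knockout arrays, against -0.56, -0.0047 and 1.68 in wild type. In Slc3a1, Slc7a9, Mep1b and Fabp6 the arrays lettered C were the high ones of both groups. Slc15a1, Slc15a2 and Slc6a8 shared a low reading of the array labelled knockout A with the surface colonocyte genes Aqp8 and Car4. For Slc15a2 this held on the brightest probe set only, as its dimmer probe sets were lowest in wild type B. Aqp8 encodes a water channel and Car4 a carbonic anhydrase. These patterns overlapped. Slc3a1, Slc7a9 and Mep1b were also lowest in the array labelled knockout A, and Slc6a8, Aqp8 and Car4 were also highest in the C array of each group. Aqp8 stood at -1.20, -0.01 and 0.09 in the labelled-knockout arrays, against 0.72, -0.55 and 0.95 in wild type. Slc15a1 stood at -1.40, 0.12 and 0.01 in the labelled-knockout arrays, against 0.67, -0.48 and 1.08 in wild type. The part of tissue position or cell makeup in these shared patterns was not tested. Of the 41 genes, 7 had a range over 1.5 log2 units, or 17.1%, beside 8.43% of all genes tested.

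**Figure D3:**
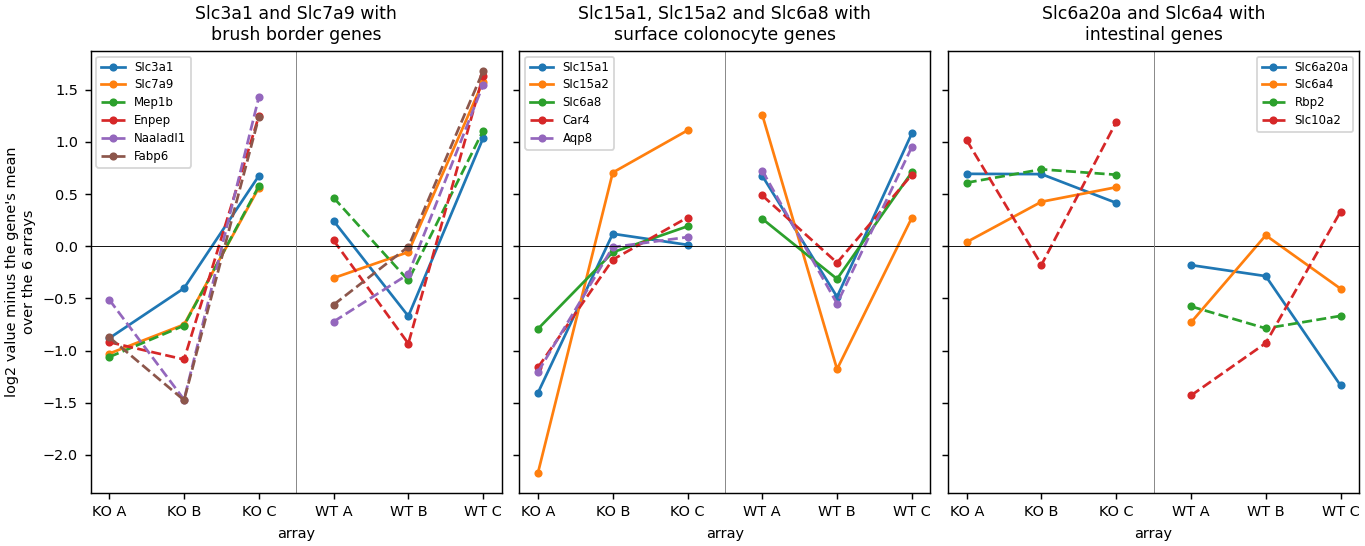
Log2 value minus the gene's mean over the 6 arrays, for carrier genes (solid) and other epithelial genes (dashed), by array. In the left panel the arrays lettered C are high in both groups, in the middle panel the array labelled knockout A is low, and in the right panel Slc6a20a and Rbp2 are higher in all labelled-knockout arrays. The left and middle patterns overlap, as Slc3a1, Slc7a9 and Mep1b are also lowest in the array labelled knockout A.

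Markers of the small-intestinal enterocyte did not move as a group with Slc6a20a. Of 6 tested markers 3 were higher and 3 lower, with a median of 0.07, and their mean level was 7.40 to 8.18 in the labelled-knockout arrays and 7.22 to 7.80 in wild type. Rbp2, a retinol-binding protein gene, stood at 1.35 and Slc10a2, the bile acid transporter gene, at 1.35, while Fabp2, a fatty acid-binding protein gene, stood at -0.62. None of them passed (limma adjusted p = 0.213 for Rbp2 and 0.902 for the other genes). The 3 tested markers of the distal large intestine, Hoxb13, Hoxa13 and Hoxd13, all read higher, with a median of 0.39. Of 12 colonocyte markers, which include general epithelial genes such as Krt8 and Epcam, 11 read lower, with a median of -0.13. Guca2a, the guanylin gene, stood at -0.35. All 7 goblet cell markers read lower, with a median of -0.26, and the mucus genes Fcgbp, Clca1 and Tff3 stood at -0.81, -0.36 and -0.27. Their groups did not overlap, nor did those of Zg16, while those of Muc2, Spink4 and Agr2 did. In the other marker lists Guca2a, Krt18, Fabp2, Rbp2, Cd3e, Neurod1 and Tagln were apart as well. Rbp2 and Tagln had wild-type means (4.54 and 4.86), and Cd3e a labelled-knockout mean (5.01), below the filter value of 5.10. They passed the filter only through the group where they read higher. Over all genes tested 9.06% were apart. All 5 tested T cell markers read lower, with a median of -0.68 and list means of 5.92 to 6.71 in the labelled-knockout arrays and 6.12 to 7.63 in wild type, and Cd3e stood at -1.01. Of 7 enteroendocrine markers 2 were higher and 5 lower, with Neurod1 at -0.66. Of the smooth muscle and stromal markers 4 were higher, Col1a1 and the contractile genes Acta2, Tagln and Actg2, with Tagln at 1.04. The 5 lower were the contractile gene Des and the stromal genes Col1a2, Col3a1, Dcn and Lum. B and plasma cell markers divided into 0 higher and 3 lower, macrophage markers into 1 and 3, and acinar markers into 1 and 2. The 1 tested endothelial marker, Kdr, read lower. None of these genes passed (limma adjusted p = 0.902 for those with a value given), and the part of such cells in the carriers' differences was not tested. Only 2 of 9 named markers of enteric neurons and glia passed the filter, with mean levels of 5.36 to 5.46 in the labelled-knockout arrays and 5.50 to 6.07 in wild type. The pancreatic gene Prss2 read 7.67 in wild type B alone, against 4.97 to 5.05 in the labelled-knockout arrays and 5.04 and 5.23 in wild type A and C. The acinar genes Cela3b, Cela2a, Cpa1, Ctrb1 and Cel were also highest in wild type B, at 6.92, 7.71, 6.42, 6.84 and 5.86. All of these but Cela3b lay below the filter, and Cela1 was not highest there. The values given against wild type B alone rest on this array.

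Genes around amino acid supply gave 0 calls as well. Brush border peptidases and carrier partners numbered 11 tested genes, 3 higher and 8 lower, with a median of -0.23 and 0 with an unadjusted limma p under 0.05. Of 12 other amino acid carriers 4 were higher and 8 lower, with a median of -0.05. The mitochondrial glycine carrier gene Slc25a38 alone had an unadjusted limma p under 0.05, at -0.47 (limma adjusted p = 0.902), with 6.71, 6.68 and 6.89 in the labelled-knockout arrays, against 7.10, 7.04 and 7.55 in wild type. The amino acid response genes around Atf4 divided into 13 higher and 12 lower with a median of 0.01, and the lysosomal sensing and mTORC1 genes into 8 higher and 15 lower with a median of -0.06. Glutamine, glutamate and glutathione genes leaned higher, 11 of 13, with a median of 0.16, and none had an unadjusted p under 0.05. These lists were drawn up with earlier results of these data known, and their counts stand beside 53.2% higher and 46.8% lower among all genes.

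**Figure D4:**
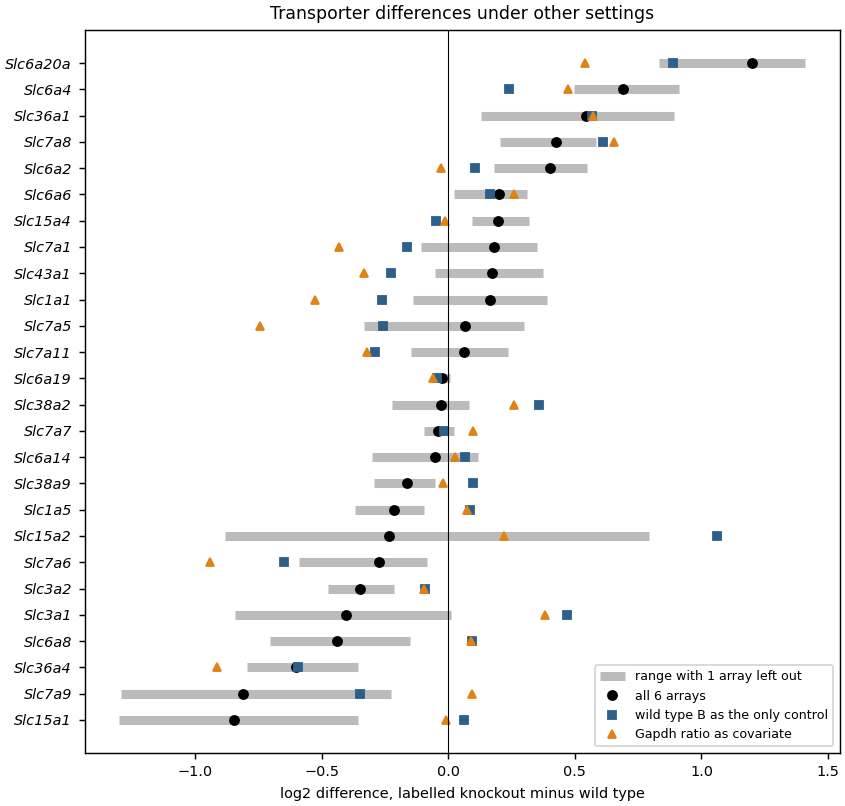
Log2 difference of 26 carrier genes, arrays labelled knockout minus wild type, with all 6 arrays (black), over the 6 settings that leave out 1 array (grey bar), against wild type B alone (blue) and with the Gapdh ratio in the model (orange). Slc6a20a, Slc6a4, Slc36a1, Slc7a8 and Slc6a6 stay above 0 and Slc36a4, Slc7a6 and Slc3a2 below 0 in all of these, while 15 carriers change sign with the Gapdh ratio.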

How the data were processed

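Total RNA of mouse colonic mucosa was made into biotinylated cRNA by 3' in vitro transcription. The deposited signal intensity of 45101 probe sets on 6 arrays was computed by the authors with MAS5, per the submitters' processing notes. Its version and scaling are not stated. Array brightness differed, so log2(signal + 16) was quantile normalized in limma 3.58.1 (R 4.3.3). The 64 control probe sets, and those with no symbol or several, were set aside. Each gene's brightest probe set was kept, and a filter at the 40th percentile of mean values left 12437 genes. lmFit and eBayes (with trend) compared the groups, with Benjamini-Hochberg adjustment at 0.05, after a test on simulated data. Single genes also had exact permutation tests. Other scalings, pseudocounts, filters, variance models, covariates and array sets were tried. Arrays have no count depth, so precision rests on the number of arrays and on each gene's spread among them.

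Members and lists were chosen with earlier results of these data known. Values in every array were given by rule for members with an unadjusted p under 0.05 or a 2-fold difference, the brightest of each family and 15 intestinal transporters, and for list genes the difference was given where that p was under 0.05. Slc15a2, Slc36a4, Slc6a8, Slc7a6, Slc6a6, Slc6a2, Slc38a9 and Slc15a4 were added after their values were seen. limma's default array weights stopped before converging, so its gene-by-gene weights were used.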

Additional observations from a re-analysis of the deposited data

How the results depend on the processing

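Over 26 carriers and 19 other settings, 426 of 489 differences kept their direction and 63 turned. The count of kept directions includes settings that leave the estimated difference itself unchanged and so could not turn it. These were no filter, the 60th percentile filter, no variance trend, a robust prior and the replicate block. limma called 1 gene of all on the signals as deposited, centred on array medians, with a pseudocount of 64 and against wild type B alone, 171 with array weights, and 0 to 6 with 1 array left out (6 without wild type B). Carriers called numbered 0 in all settings except array weights, with 1 (Slc6a4). Carriers with an unadjusted limma p under 0.05, 2 with all arrays, numbered 6 on the signals as deposited (17.1% of all genes tested), 4 with no filter (4.49%), 1 with a 60th percentile filter (3.97%), 9 with array weights (24.1%), 1 against wild type B alone (3.0%), and 1 to 4 with 1 array left out (1.83% to 17.2%). With the Gapdh ratio in the model 3 carriers had such a p (3.73%), Slc7a6, Slc36a4 and Slc7a5, and neither Slc6a20a nor Slc6a4 was among them. Slc15a1 kept its direction there only nominally, at -0.0082. On deposited signals all genes lay 0.43 higher by the median in the arrays labelled knockout, and 0.20 higher after centring on array medians. The carriers' differences in these settings are therefore given relative to that median. Their p-values and calls are those of the unshifted differences, so the 6 carriers counted on the signals as deposited include the shift.

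Deviations from the group means correlated at -0.04 and -0.11 for the A and B arrays and at 0.45 for the C arrays. Only the C arrays correlated best with their own letter, so the letters were not taken to pair the samples. With the letter as a replicate block limma called 3 genes, 0 carriers, and 4 carriers had an unadjusted p under 0.05.

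Turned differences were as follows. With the Gapdh ratio as a covariate Slc6a14 read 0.027, Slc1a1 -0.53, Slc1a5 0.074, Slc3a1 0.38, Slc7a9 0.094, Slc15a2 0.22, Slc7a5 -0.74, Slc7a7 0.098, Slc7a11 -0.32, Slc43a1 -0.34, Slc38a2 0.26, Slc7a1 -0.43, Slc6a8 0.090, Slc6a2 -0.030 and Slc15a4 -0.014. Against wild type B alone Slc6a14 read 0.064, Slc1a1 -0.26, Slc1a5 0.084, Slc3a1 0.47, Slc15a1 0.061, Slc15a2 1.06, Slc7a5 -0.26, Slc7a11 -0.29, Slc43a1 -0.23, Slc38a2 0.36, Slc7a1 -0.16, Slc6a8 0.094, Slc38a9 0.096 and Slc15a4 -0.050. With array weights Slc1a1 read -0.058, Slc7a5 -0.40, Slc7a7 0.076 and Slc7a1 -0.058, and with probe sets averaged per gene Slc1a5 0.16 and Slc7a7 0.25. As deposited, and likewise centred on array medians, Slc7a5 read -0.044, Slc7a7 0.0043, Slc7a11 -0.20 and Slc38a2 0.0100. With 1 array left out, the ranges that crossed 0 were -0.30 to 0.12 for Slc6a14, -0.059 to 0.0054 for Slc6a19, -0.14 to 0.39 for Slc1a1, -0.84 to 0.010 for Slc3a1, -0.88 to 0.79 for Slc15a2, -0.33 to 0.30 for Slc7a5, -0.096 to 0.024 for Slc7a7, -0.15 to 0.24 for Slc7a11, -0.054 to 0.37 for Slc43a1, -0.22 to 0.080 for Slc38a2 and -0.11 to 0.35 for Slc7a1. The causes were not tested.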
